A study of Homo sapiens with 6 samples.

Results

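The 34 genes described here encode chaperones, folding enzymes, quality control factors and stress sensors of the endoplasmic reticulum (ER), the compartment in which secreted and membrane proteins are folded. They were taken by gene symbol from the 60605 genes of the deposited table. The rule itself used no measured value, although the list was drawn up with earlier results of these data known, and all 34 were among the 14748 genes with enough counts to be tested. The cells were MDA-MB-231, an established triple-negative breast cancer line, grown with a control short hairpin RNA (shControl, 3 libraries) or with a hairpin against the pseudouridine synthase PUS1 (shPUS1, 3 libraries). By the study's methods, the PUS1 hairpins were carried by a puromycin-resistant pLKO.1 lentiviral vector, and transduced cells were selected with puromycin and then kept in it. The table header names 1 knockdown line, so loss of PUS1 and any other effect of that hairpin cannot be told apart, and the time between selection and RNA extraction is not given in the sources used here. The labels call the libraries of a group biological replicates, and nothing says that they came from separate transductions, so that p-values measure the spread between these libraries.

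Unfolded proteins in the ER are sensed by the membrane proteins IRE1 (gene ERN1), ATF6 and PERK (gene EIF2AK3). IRE1 splices the mRNA of XBP1 into the form that encodes an active transcription factor, cleaved ATF6 acts as a transcription factor itself, and PERK slows translation while favouring that of ATF4. The programme they start, the unfolded protein response (UPR), raises chaperones such as HSPA5 (BiP, the ER Hsp70) together with factors of ER-associated degradation (ERAD), the route by which misfolded proteins are moved to the cytosol and destroyed. Gene counts in these libraries measure neither XBP1 splicing, ATF6 cleavage nor PERK activity. In RNA from whole cultures, a change in some of the cells and a change in every cell cannot be told apart.

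In the PUS1 knockdown group no member of the ER list passed an adjusted p of 0.05 in either direction when all 6 libraries were compared (edgeR's quasi-likelihood test). HSPA5 was higher in each of the 3 shPUS1 libraries than in each of the 3 controls, with 1.72 times the control mean, and DNAJC3 and MANF were also separated between the groups, with means 1.40 and 1.47 times those of the control group. The other abundant folding genes, CALR, HSP90B1, PDIA3, PDIA4 and PDIA6, had overlapping levels in both groups and mean ratios between 0.973 and 1.041. In all, 11 of 34 members stood higher in every shPUS1 library than in every control (18.8% of all genes tested did), and 3 stood lower, namely CANX, CRELD2 and EDEM3 (17.3% of all genes).

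The knockdown itself was read first from PUS1. Its level in FPKM (fragments per kilobase of exonic length scaled to the library total) was 2.57, 4.66 and 2.18 in shControl replicates 1 to 3, and 1.13, 0.95 and 0.93 in the shPUS1 libraries. All shPUS1 values lay below all control values, with a log2 fold change of -1.62 (SE 0.32, edgeR adjusted p = 0.0462). The adjusted p was 0.0905 without shControl replicate 1, and 0.208, 0.253 and 0.192 without shPUS1 replicate 1, 2 or 3. Without shControl replicate 2, the highest control, the log2 fold change was -1.19 and the edgeR adjusted p 0.00311. With DESeq2 and all 6 libraries the adjusted p was 0.000107. Vimentin (VIM), a mesenchymal marker of this line, was at 286 to 498 FPKM, while the luminal markers ESR1, PGR and CDH1 did not exceed 0.04, 0.01 and 0.18 FPKM. EPCAM and ERBB3, the remaining luminal markers of the list, were at 2.21 to 3.12 and at 0.65 to 3.19 FPKM. The 5 markers of the line (VIM, CD44, EGFR, AXL and MSN) summed to 856, 977 and 877 FPKM in the control group and to 712, 662 and 705 FPKM in the shPUS1 group, while the 5 luminal markers summed to 3.79 to 6.08 FPKM over all libraries. Within the markers of the line, VIM, CD44 and AXL had log2 fold changes of -0.50, -0.29 and -0.60, and EGFR and MSN of 0.33 and 0.20. None had an adjusted p under 0.05 in edgeR with all 6 libraries. VIM and AXL passed with DESeq2 (adjusted p = 0.0333 and 0.00947) and in edgeR without shControl replicate 2 (adjusted p = 0.0305 and 0.0140). CD44, EGFR and MSN passed in neither. The part of these markers in the results was not tested.

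Library totals ranged from 14241505 to 19625998 estimated counts. One control library stood apart. Across genes, log2 CPM (counts scaled to the library total) of shControl replicate 2 correlated at r = 0.951 and 0.952 with those of replicates 1 and 3, against 0.981 between replicates 1 and 3 and 0.987 to 0.991 among the shPUS1 libraries. Most counts below, and the members whose value turned on it, are therefore also given without shControl replicate 2. Without it, 2813 genes passed the test in place of 380. In this library 19 of the 34 members had the lowest level of the control group and 10 the highest, against 40.3% and 42.4% of all genes tested. DNAJB9, ERN1, ERO1B, HERPUD1 and SEC24D were there at or under 0.5 times the mean of the other controls, as were 12.1% of all genes.

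The promoters of these genes are known for the ER stress response element (ERSE), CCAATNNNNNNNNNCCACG, and for its compact form ERSE-II, ATTGGNCCACG, to which ATF6 and XBP1 bind with the factor NF-Y. RefSeq promoter windows (GRCh38.p14, 250 bases before to 50 after the start) were present for 30 of the 34 members and were not used here for DERL1, DERL3, PDIA3 and SEC24D. Only exact letters were searched, on both strands, so that near matches are not counted. ERSE was found in 7 of these 30 windows and in 0.0806% of 27305 promoters of the same length. ERSE-II was found in 3 windows and in 0.0549% of promoters. The stretches with a match are shown because they show which members carry the element, each on the strand of its gene with 5 bases on either side. The windows follow the RefSeq start, and the stretches of CANX, CRELD2 and HSP90B1 lie inside the deposited models of these genes. Capitals mark the fixed letters of the element. On the other strand an ERSE reads CGTGG and then ATTGG, and an ERSE-II reads CGTGG and then CCAAT.
HSPA5, chr9:125241386-125241414, minus strand: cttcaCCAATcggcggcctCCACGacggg
HSP90B1 distal, chr12:103930211-103930239, plus strand: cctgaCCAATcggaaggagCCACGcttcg
HSP90B1 proximal, chr12:103930316-103930344, plus strand: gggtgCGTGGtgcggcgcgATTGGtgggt
CALR, chr19:12938379-12938407, plus strand: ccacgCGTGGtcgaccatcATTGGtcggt
CANX, chr5:179698773-179698801, plus strand: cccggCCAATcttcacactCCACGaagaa
CRELD2, chr22:49918549-49918577, plus strand: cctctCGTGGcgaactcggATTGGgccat
ERO1B, chr1:236282178-236282206, minus strand: gcccgCGTGGtcccgcctcATTGGccgcc
XBP1, chr22:28800598-28800626, minus strand: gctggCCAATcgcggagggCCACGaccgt
HERPUD1, chr16:56932020-56932040, plus strand: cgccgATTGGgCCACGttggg
SDF2L1, chr22:21642109-21642129, plus strand: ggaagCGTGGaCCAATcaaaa
HYOU1 distal, chr11:119057375-119057398, minus strand: ccccgTGACGTGGtCCAATcccag
HYOU1 proximal, chr11:119057269-119057289, minus strand: tgggaCGTGGtCCAATgagta
In the distal HYOU1 stretch the ERSE-II overlaps a match to the UPR element (UPRE), TGACGTGG, which a further member, DNAJC10, also held and which occurred in 0.795% of all promoters. The CARE letters TGATGNAAT, to which ATF4 and its partners bind, were in none of the 30 windows and in 1.02% of all promoters.

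The upstream bases of the 3 members with the smallest p-values are shown for comparison, since HSPA5 holds an ERSE while DNAJC3 and MANF hold neither form. Capitals here mark every CCAAT and every CCACG, the parts of the element, on either strand, and for HSPA5 the bases inside the deposited gene model were left off.
HSPA5, chr9:125241383-125241593, minus strand: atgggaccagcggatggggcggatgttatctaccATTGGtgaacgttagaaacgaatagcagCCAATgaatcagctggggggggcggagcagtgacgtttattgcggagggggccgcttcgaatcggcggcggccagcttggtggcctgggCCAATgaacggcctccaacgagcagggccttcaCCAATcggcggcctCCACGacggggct
DNAJC3, chr13:95676889-95677138, plus strand: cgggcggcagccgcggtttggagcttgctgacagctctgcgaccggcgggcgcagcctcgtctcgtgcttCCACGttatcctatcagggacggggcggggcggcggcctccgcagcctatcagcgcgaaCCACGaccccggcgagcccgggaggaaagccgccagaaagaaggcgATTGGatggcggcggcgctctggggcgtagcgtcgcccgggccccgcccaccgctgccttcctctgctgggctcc
MANF, chr3:51385041-51385290, plus strand: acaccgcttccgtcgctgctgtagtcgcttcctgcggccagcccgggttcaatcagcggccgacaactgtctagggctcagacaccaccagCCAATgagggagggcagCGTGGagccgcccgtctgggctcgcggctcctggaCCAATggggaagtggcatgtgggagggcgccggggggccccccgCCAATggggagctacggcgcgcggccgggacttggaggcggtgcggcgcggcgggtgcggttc
The HSPA5 stretch held 4 CCAAT and 1 CCACG, that of DNAJC3 1 and 2, and that of MANF 3 and 1. Alone, CCAAT was in 35.7% and CCACG in 37.9% of all promoters, and in 86.7% and 73.3% of the 30 member windows. Single parts thus occur widely, and more often in the windows of the members. A match describes letters and not a bound factor.

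Judged by level, the members spanned from CALR at 627 FPKM (mean of 6 libraries) to DERL3 at 0.11 FPKM. A mean of at least 100 FPKM was seen in 6 members, namely CALR, HSPA5, HSP90B1, PDIA4, PDIA6 and PDIA3. HSP90B1 (144 ± 25.1), PDIA4 (126 ± 3.75) and PDIA6 (120 ± 10.2 FPKM, SD over 6 libraries) overlapped in their ranges, as did PDIA6 with PDIA3 (108 ± 8.50 FPKM), while PDIA4 did not fall under 121 FPKM in any library and PDIA3 did not exceed 118.5 FPKM. All members together took 1.31%, 1.06% and 1.15% of the counts of the control libraries, and 1.26%, 1.23% and 1.39% of those of the shPUS1 libraries, so that the groups overlapped in the total.

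**Figure D1:**
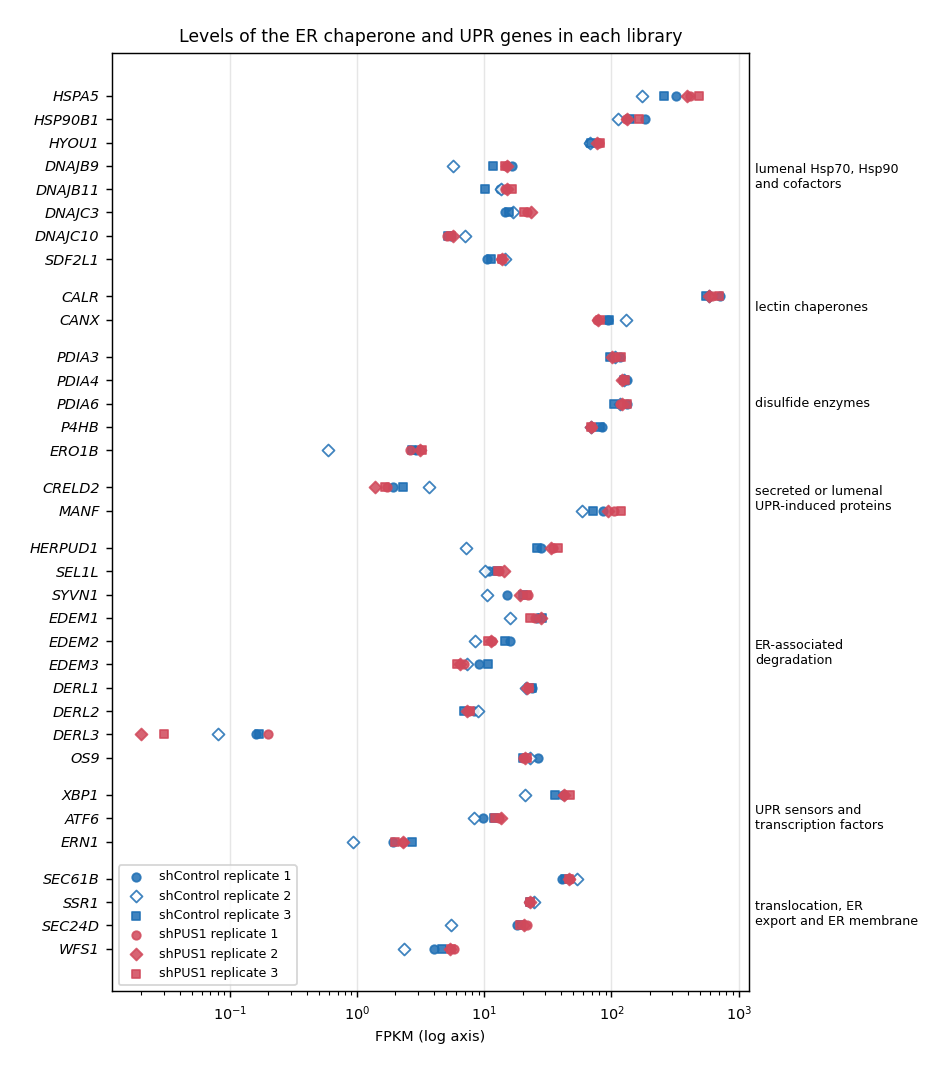
Level of each of the 34 members in FPKM (log axis) in each library, grouped by role, with blue symbols for the 3 shControl and red symbols for the 3 shPUS1 libraries. The open diamond, shControl replicate 2, lies left of the other controls for HSPA5, DNAJB9, ERO1B, HERPUD1, ERN1 and SEC24D, and the red symbols of HSPA5, DNAJC3 and MANF lie right of every control.

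With all 6 libraries, 0 of 34 members passed the adjusted p of 0.05 as higher in the PUS1 knockdown group and 0 as lower, where 1.74% and 0.841% of all genes tested did. At an unadjusted p under 0.05, 6 members were higher (ATF6, DNAJC3, HSPA5, MANF, SYVN1 and WFS1) and 3 lower (CANX, CRELD2 and EDEM3), beside 12.6% and 12.8% of all genes. The 6 became 3 without shPUS1 replicate 1, and the 3 became 5 without shControl replicate 2 and 0 without shPUS1 replicate 2 or 3. The shares of all genes are not given for these fits, so these shifts cannot be read as particular to the members. DESeq2 gave adjusted values for 33 members and passed 3 as higher (DNAJC3, HSPA5 and MANF) and 0 as lower, with 7.3% and 5.58% of all genes passing. Without shControl replicate 2, edgeR passed 5 members as higher (DNAJC3, HERPUD1, HSPA5, MANF and WFS1) and 2 as lower (EDEM2 and EDEM3), and this was 9.8% and 8.79% of all genes. Leaving out any other single library gave 0 and 0. In TMM-scaled CPM, 11 members had every shPUS1 library above every control and 3 had every one below, against 18.8% and 17.3% of all genes. With shControl replicate 2 left out of this comparison, 14 lay above and 6 below, against 25.3% and 25.7% of all genes. The members added were SDF2L1, SEC61B and SSR1 above and DERL1, EDEM2 and P4HB below. As shares of the members tested, those counted as higher came to 17.6% at an unadjusted p, 9.09% with DESeq2, 14.7% without shControl replicate 2 and 32.4% by separation of the groups, beside 0% at the adjusted p with all libraries. Those counted as lower came to 8.82%, 0%, 5.88% and 8.82%, beside 0%. The DESeq2 share of 9.09% rests on 3 genes and lay near the 7.3% of all genes. The median log2 fold change of the members was 0.11, with 22 of 34 above 0, that of all genes was -0.03, and that of a list of other ER genes was 0.05. Without shControl replicate 2 these medians were 0.08, with 22 of 34 above 0, -0.02 and 0.03. The members' median was 0.05 without shControl replicate 3, with 17 above 0 and 17 below. It was 0.11 without shPUS1 replicate 3, with 19 above 0 and 15 below. Of all genes, 6978 of 14748 were above 0 with all 6 libraries.

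**Figure D2:**
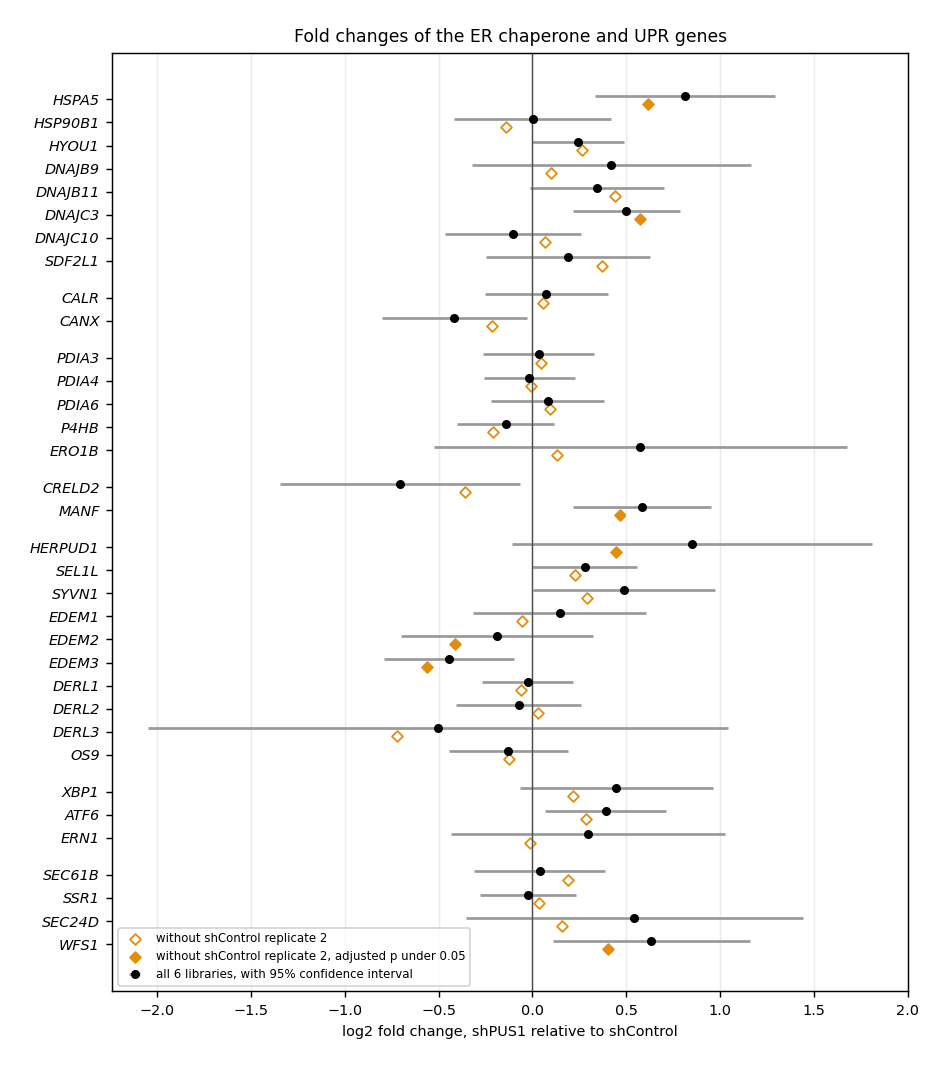
Log2 fold change of each member, shPUS1 relative to shControl, for all 6 libraries (black, with 95% confidence interval) and without shControl replicate 2 (diamonds, filled where the adjusted p was under 0.05). For 25 of 34 members the black interval includes 0, and the filled diamonds are HSPA5, DNAJC3, MANF, HERPUD1 and WFS1 to the right and EDEM2 and EDEM3 to the left.

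Among the Hsp70 and Hsp90 chaperones of the lumen, HSPA5 binds unfolded chains and holds the UPR sensors inactive. Its gene lies at chr9:125234853-125241382 on the minus strand in the deposited table. Its level was 321, 173 and 258 FPKM in shControl replicates 1 to 3 and 416, 393 and 484 FPKM in the shPUS1 libraries. The groups did not overlap, the lowest control being replicate 2. The log2 fold change was 0.81 (SE 0.21, adjusted p = 0.0729), and the 2 remaining controls still lay below all shPUS1 libraries when replicate 2 was left out, with a log2 fold change of 0.61 (SE 0.13, adjusted p = 0.0158). DESeq2 gave 0.82 with an adjusted p of 0.00628. The edgeR adjusted p rose as far as 0.266 when another single library was left out, and was 0.123 with replicate number added as a block.

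HSP90B1 (GRP94), the ER Hsp90 and a partner of HSPA5 in the folding of receptors and integrins, did not share this pattern. It was at 182, 113 and 141 FPKM in the control group and at 131, 133 and 164 FPKM in the shPUS1 group. The shPUS1 values lay inside the range of the controls, and the log2 fold change was 0.0004 (95% interval -0.42 to 0.42), turning to -0.14 without shControl replicate 2. As a ratio within each library, HSPA5 stood at 1.76, 1.53 and 1.83 times HSP90B1 in the controls and at 3.18, 2.96 and 2.95 times in the shPUS1 libraries. The ratio did not overlap between the groups, and shControl replicate 2 was close to the other controls in it. Against CALR the ratio of HSPA5 was 0.450, 0.296 and 0.470 in the controls and 0.669, 0.671 and 0.685 in the shPUS1 libraries. HSPA5 made up 13.98%, 9.42% and 13.2% of the summed FPKM of all members in the controls and 18.6%, 18.2% and 19.5% in the knockdown group. Without HSPA5 the members summed to 1973, 1664 and 1698 FPKM in the control group and to 1823, 1769 and 1994 FPKM in the shPUS1 group, which overlapped.

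The cofactors of HSPA5 were less uniform. DNAJC3 (p58IPK, chr13:95677139-95794988, plus strand), a J-domain co-chaperone that also inhibits PERK, was at 14.6, 16.7 and 15.7 FPKM in the controls and 21.7, 23.2 and 20.6 FPKM in the shPUS1 libraries. The groups were apart and shControl replicate 2 was the highest of the controls. The log2 fold change was 0.50 (SE 0.12, adjusted p = 0.0672), and 0.57 (SE 0.09, adjusted p = 0.00647) without that library. The edgeR adjusted p of DNAJC3 rose as far as 0.304 without another single library, and was 0.187 with the replicate block. HYOU1, the large Hsp70-like nucleotide exchange factor of HSPA5, was at 66.1, 67.9 and 68.9 FPKM against 79.2, 76.3 and 80.9 FPKM, with no overlap and a log2 fold change of 0.24 (adjusted p = 0.196). DNAJB11, a J-domain protein that hands unfolded proteins to HSPA5, was also apart between the groups, at 10.1 to 13.5 against 14.7 to 16.5 FPKM (adjusted p = 0.212). DNAJB9, a J-protein that brings HSPA5 to IRE1, overlapped at 5.64 to 16.6 against 14.5 to 15.1 FPKM, the low value being shControl replicate 2, and its log2 fold change of 0.42 was 0.10 without that library. The J-domain disulfide reductase DNAJC10 and SDF2L1, a partner of ER J-proteins, overlapped as well, with log2 fold changes of -0.10 and 0.19, which were 0.06 and 0.37 without it.

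**Figure D3:**
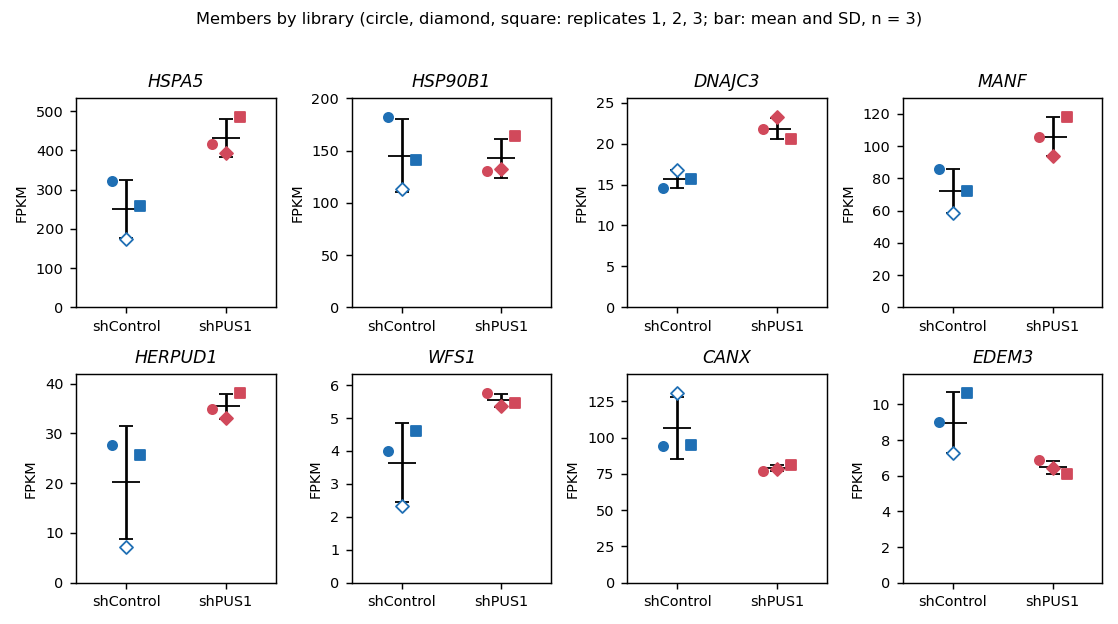
FPKM of 8 members in each library, with the mean and SD of each group (n = 3) as bars and shControl replicate 2 as an open diamond. HSPA5, DNAJC3 and MANF lie higher and CANX and EDEM3 lower in all 3 shPUS1 libraries, HSP90B1 overlaps, and the open diamond sets most of the control spread of HERPUD1 and WFS1.

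The lectin chaperones hold newly made glycoproteins until their sugars are trimmed. Soluble calreticulin, CALR, was the most abundant member, with 713, 585 and 550 FPKM in the controls and 622, 586 and 708 FPKM in the knockdown group. These ranges overlapped almost wholly, and the log2 fold change was 0.07 (95% interval -0.25 to 0.40). Its membrane-bound relative calnexin, CANX (chr5:179678628-179731641, plus strand), was at 94.0, 131 and 95.01 FPKM in the controls and at 77.3, 78.2 and 81.5 FPKM in the shPUS1 libraries. All shPUS1 values were below all controls, of which replicate 2 was far the highest. The log2 fold change was -0.42 (SE 0.17, adjusted p = 0.172), and -0.22 (adjusted p = 0.0911) without replicate 2.

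For the disulfide enzymes no difference between the groups was detected. The protein disulfide isomerases PDIA3, PDIA4, PDIA6 and P4HB, which form and rearrange disulfide bonds, had log2 fold changes of 0.03, -0.02, 0.08 and -0.14 with overlapping groups. PDIA4 had levels of 132, 125 and 125 FPKM in the controls and 123, 121 and 128 FPKM in the shPUS1 libraries, which overlapped, and the 95% interval of the log2 fold change was -0.26 to 0.23. ERO1B, an oxidase that recharges these isomerases, was at 2.88, 0.59 and 2.71 FPKM in the controls and 2.60, 3.12 and 3.22 FPKM in the knockdown group. Apart from shControl replicate 2 its levels overlapped, and the log2 fold change was 0.58 with that library and 0.13 without it. Of 100-base stretches of PDIA3 transcripts, 6.39% were shared with the pseudogene PDIA3P1, and the counting could have divided such reads. Exons of other genes on the opposite strand cover 33.3% of the exonic bases of PDIA3 and 25.2% of those of PDIA6, and whether the counting used strand is not given in the sources used here.

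MANF and CRELD2 are small ER proteins, partly secreted, whose genes are known targets of the UPR. MANF (chr3:51385291-51389397, plus strand) was at 85.6, 58.3 and 71.9 FPKM in the controls and at 106, 94.0 and 118 FPKM in the shPUS1 libraries. No control reached the lowest shPUS1 value. The log2 fold change was 0.58 (SE 0.16, adjusted p = 0.0843), and 0.47 (SE 0.13, adjusted p = 0.0403) without shControl replicate 2. The edgeR adjusted p of MANF rose as far as 0.298 without another single library, and was 0.160 with the replicate block. CRELD2 (chr22:49918167-49927540, plus strand) lay the other way, at 1.92, 3.65 and 2.28 FPKM in the controls and 1.71, 1.38 and 1.66 FPKM in the knockdown group. The groups were apart, shControl replicate 2 was the highest library, and the log2 fold change of -0.71 (SE 0.28, adjusted p = 0.165) was -0.36 without it. The log2 fold changes of MANF and CRELD2 were thus of opposite sign in the same 6 libraries.

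The 10 ERAD genes lay on both sides of 0, with 4 log2 fold changes above it and 6 below, with or without shControl replicate 2. HERPUD1, a stress-induced membrane protein that gathers the retrotranslocation complex, was at 27.8, 7.13 and 25.8 FPKM in the controls and 34.9, 33.2 and 38.2 FPKM in the shPUS1 libraries. Even the 2 higher controls lay under every shPUS1 library, and replicate 2 was at 0.266 times their mean. The log2 fold change was 0.85 (SE 0.41, adjusted p = 0.242) with that library and 0.45 (SE 0.10, adjusted p = 0.0214) without it. SEL1L and SYVN1 (HRD1), the adaptor and the ubiquitin ligase of the main ERAD complex, had log2 fold changes of 0.28 (adjusted p = 0.199) and 0.49 (adjusted p = 0.195), which were 0.22 and 0.29 without shControl replicate 2. SEL1L was apart between the groups, and SYVN1 overlapped through shControl replicate 3 at 20.2 FPKM and shPUS1 replicate 2 at 19.1 FPKM. Of the 100-base stretches of SYVN1 transcripts, 4.46% also occur in FAU, and of those of DNAJB11, 6.27% occur in AC068631.2.

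The genes of the mannosidase-like EDEM proteins, which mark misfolded glycoproteins for removal, did not share a direction with all 6 libraries. Without shControl replicate 2 each of them had a log2 fold change below 0. EDEM3 (chr1:184690237-184754907, minus strand) was at 9.02, 7.26 and 10.7 FPKM in the controls and 6.86, 6.45 and 6.10 FPKM in the knockdown group. Its groups were apart, and the log2 fold change was -0.44 (SE 0.15, adjusted p = 0.124), or -0.56 (SE 0.11, adjusted p = 0.0104) without shControl replicate 2. EDEM2 was at 15.96, 8.44 and 14.5 FPKM against 11.4, 11.3 and 10.6 FPKM. In EDEM2 replicate 2 was the lowest of all 6 libraries while the other controls were the highest, and the log2 fold change was -0.19 (adjusted p = 0.615) with it and -0.41 (adjusted p = 0.0291) without it. EDEM1 overlapped, with a log2 fold change of 0.14 that turned to -0.06 without that library. The derlins DERL1 and DERL2, parts of the retrotranslocation channel, and the lectin OS9, which hands substrates to SEL1L, had log2 fold changes of -0.03, -0.07 and -0.13 with overlapping groups, and of -0.06, 0.03 and -0.12 without that library. DERL3, at 1 to 14 counts per library, was too low for a comparison, and 77% of its exonic bases lie opposite SMARCB1, whose reads cannot be told apart from its own unless the counting used strand.

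**Figure D4:**
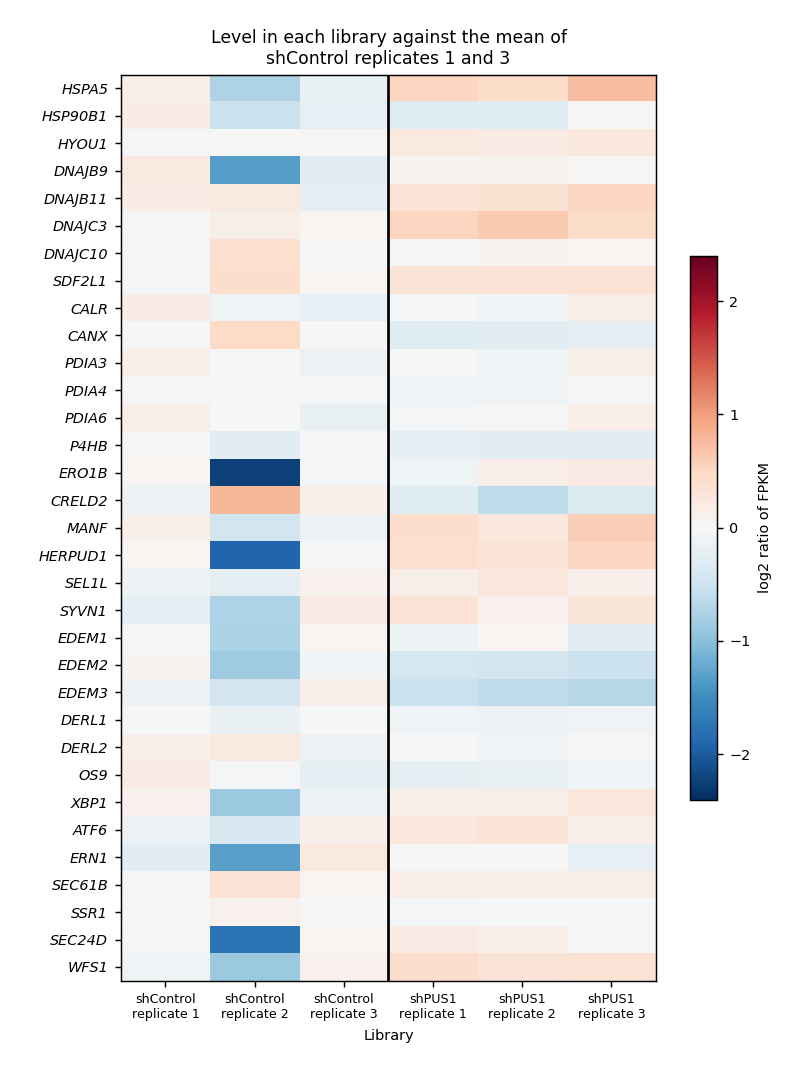
Log2 ratio of FPKM in each library to the mean of shControl replicates 1 and 3, for the 33 members with at least 1 FPKM in that mean, with red above and blue below it. The second column, shControl replicate 2, is blue for HERPUD1, ERO1B, SEC24D, DNAJB9 and ERN1 and red for CRELD2 and CANX, and the 3 shPUS1 columns look alike, red for HSPA5, DNAJC3, MANF, HERPUD1 and WFS1 and blue for EDEM2 and EDEM3.

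The 3 sensors and transcription factors all had log2 fold changes above 0 with all libraries, and 2 of 3 without shControl replicate 2. ATF6 (chr1:161766298-161977574, plus strand) was at 9.84, 8.33 and 11.9 FPKM in the controls and at 12.9, 13.5 and 12.2 FPKM in the shPUS1 libraries. Its groups were apart by a narrow margin, with a log2 fold change of 0.39 (SE 0.14, adjusted p = 0.139), and of 0.29 (adjusted p = 0.0906) without shControl replicate 2. XBP1 was at 41.9, 20.9 and 35.8 FPKM against 42.2, 42.6 and 46.8 FPKM. The highest control nearly touched the lowest shPUS1 library, and the log2 fold change of 0.45 (adjusted p = 0.248) was 0.21 without replicate 2. ERN1 overlapped at 0.93 to 2.69 against 2.0 to 2.31 FPKM, and its log2 fold change of 0.30 was -0.02 without replicate 2.

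Of the genes for entry into, exit from and the membrane of the ER, WFS1 had the largest log2 fold change of the 4. WFS1 (wolframin, chr4:6269849-6303265, plus strand), a membrane protein of calcium handling that limits ATF6 signalling, was at 4.01, 2.32 and 4.62 FPKM in the controls and 5.77, 5.38 and 5.46 FPKM in the shPUS1 libraries. No overlap remained with or without replicate 2, and the log2 fold change was 0.63 (SE 0.23, adjusted p = 0.139) and 0.40 (SE 0.10, adjusted p = 0.0314), respectively. SEC24D, a cargo adaptor of the COPII coat that buds from the ER, was at 18.2, 5.48 and 19.4 FPKM against 21.7, 20.5 and 18.9 FPKM. Its FPKM overlapped through replicate 3 of each group, although its scaled counts did not, and the log2 fold change of 0.54 (adjusted p = 0.405) was 0.16 without shControl replicate 2. SEC61B of the translocon and SSR1 of the translocon-associated complex had log2 fold changes of 0.04 and -0.02, with 95% intervals of -0.31 to 0.39 and -0.28 to 0.23, and of 0.19 and 0.03 without that library.

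Set beside the promoter letters above, the 10 members with an ERSE or ERSE-II had a median log2 fold change of 0.22, with 8 above 0, and the 20 members with neither had a median of 0.11, with 12 above 0. Without shControl replicate 2 these medians were 0.17 and 0.08. The 7 ERSE members alone had a median of 0.07, below that of the members with neither. The ERSE members ran from CRELD2 at -0.71 through CANX at -0.42, HSP90B1 at 0.0004 and CALR at 0.07 to HSPA5 at 0.81. HSP90B1, with 2 exact matches, lay near 0, while DNAJC3 and MANF, with no exact match in the window, were among the members with the smallest p-values. Near matches were not searched, and the part of the element in these values was not tested. The 3 ERSE-II members, SDF2L1, HYOU1 and HERPUD1, were at 0.19, 0.24 and 0.85. These medians are descriptions of few genes.

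A list of 106 further ER genes, of which 104 were tested, shows what surrounds the members. Here 2 (1.92%, against 1.74% of all genes) passed the adjusted p of 0.05 as higher and 5 (4.81%, against 0.841%) as lower in the shPUS1 group. The 5 lower genes were DDOST, a subunit of the oligosaccharyltransferase that attaches N-glycans, MLEC, a lectin of the same pathway, SERPINH1 (HSP47), the collagen chaperone, and the thioredoxin-like oxidoreductases TXNDC5 and TMX4. The 2 higher genes were UBE2J1, a ubiquitin-conjugating enzyme of ERAD, and TXNDC11, a further thioredoxin-like protein, which was named after its value was seen. The 2 higher genes became 0 when any library but shControl replicate 2 was left out, the 5 lower genes became 0 without shControl replicate 1 or any single shPUS1 library and 5 without shControl replicate 3, and 12 higher (11.5%, against 9.8% of all genes) and 14 lower genes (13.5%, against 8.79%) passed without shControl replicate 2.

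SERPINH1 was at 24.9, 32.3 and 25.7 FPKM in the controls and 14.5, 12.7 and 13.3 FPKM in the shPUS1 libraries. The groups were far apart, with a log2 fold change of -1.01 (SE 0.15, adjusted p = 0.0319). DDOST, at 81.5, 86.5 and 71.7 against 46.2, 45.0 and 43.6 FPKM, and MLEC, at 71.0, 77.5 and 79.4 against 46.7, 47.9 and 40.5 FPKM, did not overlap either, and their log2 fold changes were -0.81 (adjusted p = 0.0335) and -0.73 (adjusted p = 0.0351). TXNDC5 and TMX4 were at -0.71 (adjusted p = 0.0445) and -0.72 (adjusted p = 0.0418). The glycosylation and glucosidase genes had 9 of 12 log2 fold changes below 0, and 7 of 12 without shControl replicate 2, where all genes had 7770 of 14748 and 7891 of 15130. GANAB, the catalytic part of glucosidase II, was at -0.33 (adjusted p = 0.122). Of the ERAD genes in this list, 15 of 20 were above 0, and 16 without shControl replicate 2. All genes had 6978 of 14748 and 7239 of 15130 above 0. UBE2J1 was at 0.59 (adjusted p = 0.0459), while the ER lipid raft proteins ERLIN2 and ERLIN1 were at -0.66 (adjusted p = 0.0519) and -0.59 (adjusted p = 0.0900).

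**Figure D5:**
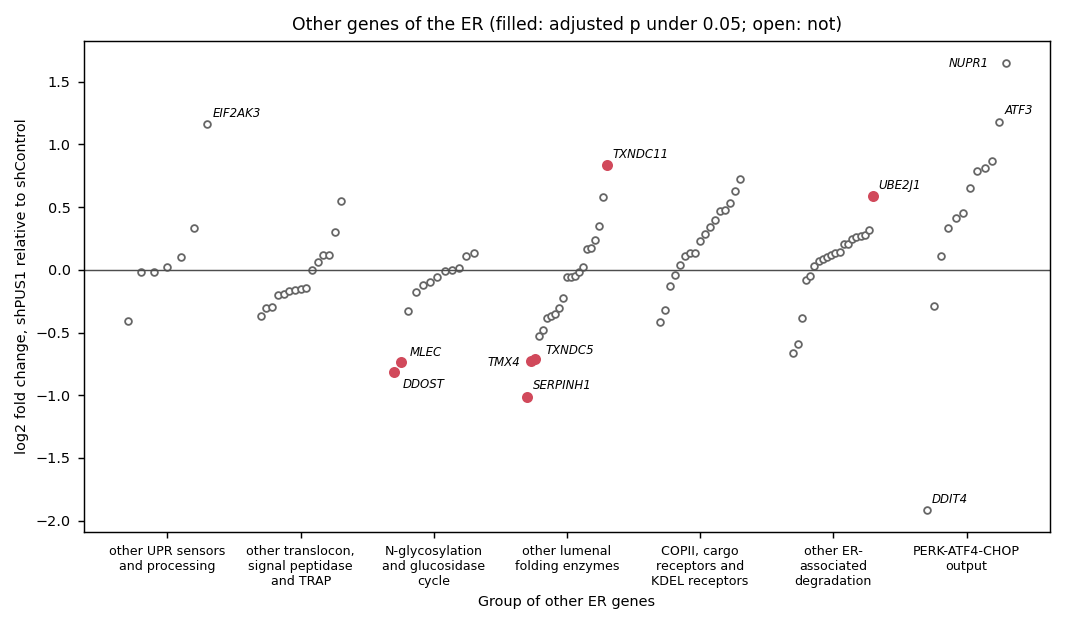
Log2 fold change, shPUS1 relative to shControl, of the 104 further ER genes tested, by group, each sorted by value and filled red where the adjusted p was under 0.05. The 5 red points below 0 are DDOST, MLEC, SERPINH1, TMX4 and TXNDC5, and the 2 above 0 are TXNDC11 and UBE2J1.

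Among the other sensors and their processing enzymes, EIF2AK3 (PERK) was at 4.03, 1.60 and 4.17 FPKM in the control group and 7.07, 7.27 and 7.08 FPKM in the knockdown group. Its shPUS1 libraries agreed closely and lay above all controls. The log2 fold change was 1.16 (SE 0.31, adjusted p = 0.0790), and 0.84 (SE 0.09, adjusted p = 0.00113) without shControl replicate 2. CREB3L1, a relative of ATF6, and MBTPS2, the protease of the second ATF6 cleavage, were at 0.33 and -0.41 (adjusted p = 0.165 and 0.153).

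Downstream of PERK and ATF4, 10 of 12 genes had log2 fold changes above 0, and 9 without shControl replicate 2. All genes had 6978 of 14748 and 7239 of 15130 above 0. With all libraries 0 passed the adjusted threshold in edgeR. At an unadjusted p under 0.05, 4 were higher and 1 was lower, against 12.6% and 12.8% of all genes. DESeq2 passed 2 as higher and 1 as lower, against 7.3% and 5.58% of all genes. Once shControl replicate 2 was dropped, edgeR passed 3 of the 12 as higher and 2 as lower, beside 9.8% and 8.79% of all genes. TRIB3, a pseudokinase that ATF4 and CHOP induce, was at 0.79 (adjusted p = 0.0720), and PPP1R15A (GADD34), which reverses the translation block of PERK, was at 0.66 (adjusted p = 0.107). The 3 that passed as higher once shControl replicate 2 was dropped were TRIB3, PPP1R15A and ATF3, at 0.59, 0.47 and 0.73. The 2 that passed as lower were DDIT4 and TNFRSF10B, at -2.30 and -0.47. ATF4 and DDIT3 (CHOP), named after their values were seen, were at 0.42 (adjusted p = 0.252) and 0.46 (adjusted p = 0.564), and at 0.22 and 0.02 without shControl replicate 2. DDIT4, an inhibitor of mTORC1 that other stresses also induce, lay the other way, at 141, 39.3 and 129 FPKM in the controls and 27.7, 27.4 and 24.4 FPKM in the shPUS1 libraries, with a log2 fold change of -1.92 (adjusted p = 0.0521).

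In ER exit, 13 of 17 genes were above 0, and 12 without shControl replicate 2, where all genes had 6978 of 14748 and 7239 of 15130. The COPII coat genes SEC31A and SEC23A were at 0.48 (adjusted p = 0.1003) and 0.63 (adjusted p = 0.134), and the cargo receptor TMED10 was at -0.42 (adjusted p = 0.0719). The translocon, signal peptidase and associated genes had 10 of 15 log2 fold changes below 0, but 7 of 15 without shControl replicate 2, and TRAM1, which assists entry into the ER, was at 0.55 (adjusted p = 0.0564).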

How the data were processed

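Poly(A) RNA of 3 shControl and 3 shPUS1 MDA-MB-231 libraries was read as paired ends. The deposited table holds, per gene, estimated counts that the authors made without normalization with HISAT2 and HTSeq 0.6.1 (submitters' processing notes), and FPKM that the authors computed from these counts, exonic length and the library total. The genome build, annotation and strandedness are not given in the sources used here. Coordinates are those of the deposited table, and 11 of 34 members have the start and end of GENCODE release 29 (GRCh38). The table's function annotation was not used here. Between 29.8% and 31.8% of counts above 0 were not whole, and counts were rounded to whole numbers.

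Genes kept by filterByExpr entered edgeR 4.0.16 (R 4.3.3), with TMM factors, a prior count of 2, group as the only term and the quasi-likelihood F-test. P-values were adjusted by the Benjamini-Hochberg method over all genes tested, and genes with an adjusted p under 0.05 passed, with no limit on fold. DESeq2 1.42.0, limma 3.58.1 on log2(FPKM + 1) or log2(FPKM + 0.1) for genes with a mean of at least 1 FPKM, other scalings, no filter, a replicate block and leaving out each library served as alternatives. With 3 against 3 libraries an exact permutation test cannot go below p = 0.1, so none is quoted. The fit was tested on simulated data. Pseudogene and overlap shares came from 100-base stretches and exons of GENCODE release 29. Python 3.11.15, pandas 2.3.3 and matplotlib 3.10.9 were used for the rest.

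The members and lists were chosen with earlier results of these data known. Full statistics are given for members that passed and for the 8 with the smallest unadjusted p, and of the other ER genes up to 3 per group are named by the same order. Residuals of libraries with the same replicate number correlated across genes at -0.05, -0.03 and -0.19. With 3 libraries per group this cannot decide whether the numbers mark a shared batch, and the labels do not say. DERL3 had 1 to 14 counts per library and the other members at least 67.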

Additional observations from a re-analysis of the deposited data

How the results depend on the processing

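The median log2 fold change of the members stayed above 0 in every alternative, from 0.05 to 0.18 when single libraries were left out, and 23 of 34 members kept their direction in all of them. Members that passed as higher numbered 0 with all libraries, 3 with DESeq2, 2 with no filter on low counts, 3 at an adjusted p under 0.1, 8 with voom and sample weights, an alternative chosen after seeing the data, and 0 to 5 when single libraries were left out. Members that passed as lower numbered 0, 1 with voom and 0 to 2 without single libraries. Over all genes more also passed with DESeq2, no filter, the adjusted p under 0.1 and voom, as given below. At an unadjusted p the higher members were 11 with voom and 3 to 9 without single libraries, and the lower ones 0 to 5. The share of all genes at an unadjusted p is given here only for edgeR with all 6 libraries, at 12.6% higher and 12.8% lower. The unadjusted counts from the other fits therefore cannot be read as a result about the members. With a replicate block 1 member was lower at an unadjusted p, 0 other ER genes passed in either direction, 18 genes passed in all and PUS1 was at -1.53. Other ER genes passing as higher and lower were 7 and 11 with DESeq2, 7 and 8 with no filter, 15 and 12 with voom, 5 and 11 at an adjusted p under 0.1, 0 and 1 with a log2 fold change of at least 1, and 0 to 12 and 0 to 14 without single libraries. The 2 higher ones became 0 with library totals only, 0 with limma on log2(FPKM + 0.1) and 1 on log2(FPKM + 1). PUS1 was at -1.48 and -1.001 in these limma fits, with the adjusted p above 0.05, and at -1.84 to -1.19 without single libraries. Over all genes, 380 passed, 1725 with DESeq2, 250 with limma on log2(FPKM + 0.1), 1284 with no filter, 3090 with voom, 1561 at an adjusted p under 0.1, 200 with a log2 fold change of at least 1 and 0 to 2813 without single libraries. The split of higher against lower was 256 to 124 with TMM, 164 to 132 with library totals only, 134 to 116 with limma on log2(FPKM + 0.1), 221 to 167 on log2(FPKM + 1), 978 to 747 with DESeq2, 756 to 528 with no filter, 1692 to 1398 with voom and 1483 to 1330 without shControl replicate 2.

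Direction turned for members near 0. HSP90B1 was at -0.0271 with library totals only, -0.0074 and -0.0075 with limma, -0.199 with voom and -0.140 to 0.185 without single libraries. DNAJC10 was at 0.0169 with voom and -0.210 to 0.0649 without single libraries, and SSR1 at 0.0295 and -0.0593 to 0.0327. Without single libraries CALR ran from -0.0232 to 0.181, PDIA3 from -0.0506 to 0.0926, PDIA4 from -0.0535 to 0.0060, PDIA6 from -0.0212 to 0.154, EDEM1 from -0.0584 to 0.273, DERL2 from -0.188 to 0.0273, ERN1 from -0.0156 to 0.644 and SEC61B from -0.0497 to 0.190. The cause of these shifts was not tested. Depth limits DERL3.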
